A study of Mus musculus with 24 samples.

Results

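Primary mouse embryonic fibroblasts (MEFs) from which the Myc gene had been excised (MycKO) were compared with MEFs whose Myc locus was intact (WT), using 3 sequencing libraries of each, 6 of the 24 libraries of the series. Members of the comparison were all genes with at least 1 deposited CPM (reads relative to library size, after the authors had scaled the libraries to each other) in at least 3 of the 12 primary libraries, a rule that took 13101 of the 41710 genes in the table. All cells, controls included, carried floxed alleles and a pair of copies of a CreER transgene, a Cre recombinase fused to an estrogen receptor and driven by the ubiquitous ROSA26 promoter. In MycKO cells the loxP sites flank exons 2 and 3 of Myc, and excision was induced over 7 days in 500 nM 4-hydroxytamoxifen (4OHT, a ligand of the estrogen receptor), after which cells were kept in 250 nM 4OHT and then left free of it for a minimum of 3 days. WT cells received the ethanol vehicle, and RNA was taken on day 10 from cells grown in 10% serum. Cells of a group came from a pool of embryos of about day 14 to day 16 (8 to 12 embryos in the study's methods, at least 6 in the sample labels), and a WT line of a single genotype served as the control in most experiments, although which floxed line it was is not given in the sources used here. MycKO cells at this stage are described as growth arrested. Because only MycKO cells were exposed to 4OHT, that exposure and the excision cannot be told apart in the comparison. Values of primary MlxKO cells, which carried the same CreER, went through the same exposure and kept Myc, are therefore given beside it, as are values of DKO cells, which lack both Myc and Mlx and were also exposed.

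Myc is a transcription factor of the bHLH-ZIP family that binds DNA as a heterodimer with Max, mainly at E-boxes with the letters CACGTG. It is known for promoting the making of ribosomes, nucleotides and other building blocks and for driving cells from G1 into S phase. In fibroblasts, arrest and senescence are usually accompanied by lower expression of replication and mitosis genes, by inhibitors of cyclin-dependent kinases, and by secretion of matrix proteins, growth factor binding proteins and cytokines.

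The 3 WT libraries held between 16692411 and 17887312 reads on genes (median 17227117) and the 3 MycKO libraries between 16081463 and 20966163 (median 18766487), as recovered from the steps between deposited values. Depending on the library, 3 reads, taken as the floor, were worth 0.149 to 0.196 CPM, a limit for counting error alone. Pairs of libraries of the same group, correlated over genes (not replicates of each other), had a Pearson's r for log2(CPM + 1) between 0.990 and 0.996 and pairs of a WT and a MycKO library between 0.965 and 0.976. Among the MycKO libraries, library 10 stood somewhat apart, with 2.62% of reads on genes encoded by the mitochondrial genome against 1.69% in library 9 and 1.65% in library 11, while WT libraries had 2.22%, 2.13% and 2.88%. Differences were tested with limma on log2(CPM + 1), with the 4 primary groups in the same fit and Benjamini-Hochberg adjustment over the 13101 genes, and a gene with an adjusted p under 0.05 was called. Fold changes are on this log2(CPM + 1) scale, which understates the change of low genes, and are given ± SE. An exact 2-sided permutation test of 3 libraries against 3 cannot go below p = 0.1, so overlap between the libraries of the groups is also given. Over all genes tested, 48.1% had no overlap in either direction. Genes named for the size of their change had to have none, so its absence in them is no added support. The libraries are described as biological replicates, but whether they came from separate cultures or pools is not certain, so p-values measure only the spread between these libraries, which may be technical. In bulk RNA, fewer cells of a type and less RNA per cell cannot be told apart. Several genes named share at least 20% of the 50-base stretches of their transcript with other genes, so that counting could have split their reads, and these genes are described as sharing stretches. For Dkc1, Eef1b2, Rpl12, Rpl22l1, Mrps18b, Ncapg, Slc16a3, Ccnd1, Cdkn1c, H2ax, Ctsd, Ccl3, Col10a1, Timp3, Isg15, Rtp4, Lilrb4a, Fabp4, Hoxa11, Snhg1, Snhg16, Hsp90ab1, Mlx and Mxd3, at least 20% of exon bases overlap another annotated gene, and whether strand was used in the counting is not given in the sources used here.

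Myc (ENSMUSG00000022346, chr15:61857227-61862223 on GRCm39, + strand) was examined before other genes, since it checks the labels. Its level was 100.1, 89.8 and 91.8 CPM in WT libraries and 25.8, 26.8 and 26.8 CPM in MycKO libraries, with no overlap and little spread among the latter. The mean was 3.55-fold lower, a log2 fold change of -1.79 ± 0.071 (limma, adjusted p = 5.95e-11). MlxKO libraries lay at 85.6, 89.6 and 87.3 CPM, near WT, and DKO libraries at 21.6, 22.9 and 19.9 CPM, near MycKO. Exon 1 (chr15:61857227-61857800), outside the loxP sites, makes up 24.2% of the bases of the annotated transcript, exon 2 (chr15:61859356-61860127) 32.5% and exon 3 (chr15:61861195-61862223) 43.3%. Since the table counts reads per gene, reads over the exon that is not excised could not be set apart from the rest. Mlx, excised in MlxKO and DKO cells, averaged 23.7 CPM in WT, 19.6 CPM in MycKO, 13.5 CPM in MlxKO and 11.2 CPM in DKO libraries.

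Over all genes, 5541 were called, or 42.3% of those tested. They were 2677 called higher (20.4%) and 2864 called lower (21.9%), and the median log2 fold change of all genes tested was 0.00021. Those 20.4% and 21.9% are the background for counts of list members called against WT with the deposited scaling. The split rests on how the authors scaled the libraries. When library totals were used to scale the reads instead, the median of all genes shifted by -0.095, and 1853 genes (14.1%) were called higher and 4051 (30.9%) lower, the background for counts given with library-total scaling. Few changes were large, with 244 genes (1.86%) called higher and 367 (2.8%) called lower when a log2 fold change of 1 or more in either direction was required.

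**Figure D1:**
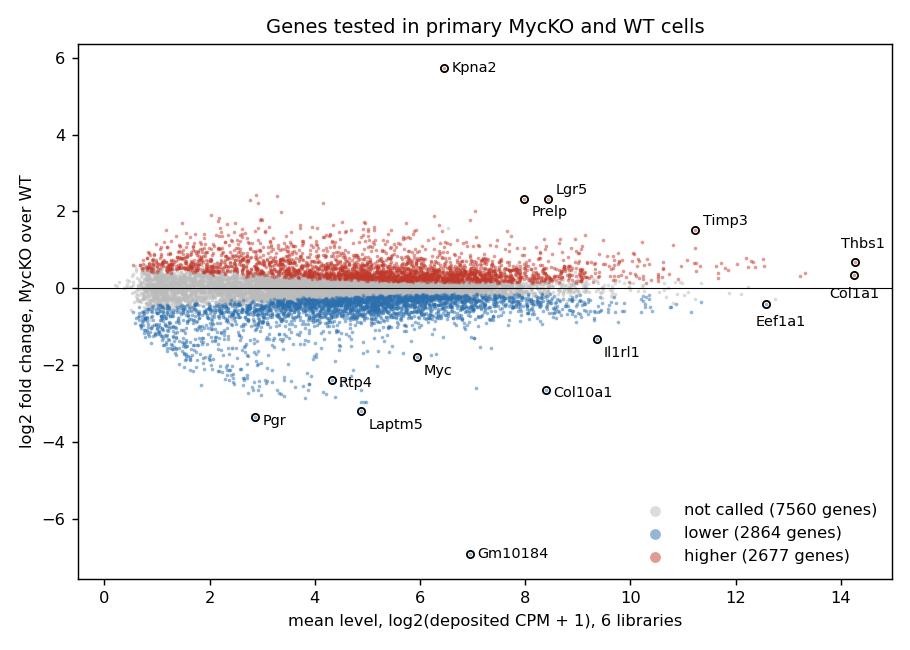
Each point is a gene, with the mean of log2(deposited CPM + 1) over the 6 libraries on the x axis and the log2 fold change of MycKO over WT on the y axis, coloured by call (limma, adjusted p under 0.05). Most called genes lie within 1 log2 unit of 0, and Kpna2 and Gm10184 stand far outside the rest at 5.73 and -6.93.

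Of the 12 members tested of a list of Myc and Mlx network genes, 3 were called higher and 2 lower in MycKO cells, shares near the background of all genes. With library-total scaling 1 was called higher and 4 lower, again near the 14.1% and 30.9% of all genes under that scaling, and Mycn and Mycl lost their calls while Mlx and Mxd3 were called lower. Mxd4, an antagonist of Myc, was called higher under both scalings, and measured 85.95, 82.7 and 80.997 CPM in WT and 108, 101 and 115 CPM in MycKO libraries (log2 fold change 0.37 ± 0.064, limma, adjusted p = 0.000187). The paralogs Mycn, which was close to the filter at 0.937 ± 0.105 CPM in WT and 1.64 ± 0.122 CPM in MycKO cells (SD, n = 3), and Mycl had log2 fold changes of 0.45 and 0.38, and both calls were lost when single libraries were left out, with 1 network gene called higher without WT library 2, MycKO library 9 or MycKO library 11. The antagonist Mxi1 fell by 0.34 on the log2 scale (limma, adjusted p = 0.00572), from 20.6, 19.9 and 18.8 to 15.6, 16.4 and 14.3 CPM without overlap. Max, the shared partner, measured 64.9 ± 2.53 CPM in WT and 64.4 ± 3.16 CPM in MycKO cells (SD, n = 3), with a log2 fold change of -0.01 and a 95% interval from -0.17 to 0.15.

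Genes for making ribosomes were lower in MycKO cells in most members of their lists. Of 63 nucleolar genes for ribosome assembly, 52 were called lower and none higher, with a median log2 fold change of -0.55. Their summed level was 5168, 5248 and 4859 CPM in WT libraries and 3279, 3304 and 3279 CPM in MycKO libraries. It was 4757, 4692 and 4901 CPM in MlxKO and 2744, 2748 and 2712 CPM in DKO libraries, so both groups without Myc lay below both groups with it. Dkc1, the pseudouridine synthase dyskerin of small nucleolar ribonucleoproteins, had the largest fall of the list, from 47.9, 53.5 and 44.01 to 20.5, 18.4 and 18.6 CPM (log2 fold change -1.29 ± 0.093, limma, adjusted p = 2.53e-08). Polr1b, the second largest subunit of RNA polymerase I, followed with -0.95 ± 0.084. The abundant nucleolar proteins nucleolin (Ncl) and nucleophosmin (Npm1), named after their values were seen, had -0.76 and -0.88, and Npm1 shares stretches with other genes. Hosts of small nucleolar RNAs were also lower in 10 of 15 members, with Snhg1 at 58.02, 47.6 and 61.8 CPM in WT and 27.2, 30.1 and 25.8 CPM in MycKO libraries and Snhg16 at -0.80 ± 0.16 on the log2 scale.

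Cytosolic ribosomal protein genes were called lower in 70 of 82 members and higher in none, with a median of -0.47. Of these 82 genes, 63 share stretches with other genes, so values of single members are uncertain. The largest called falls were Rpl12 at -0.82 ± 0.068 and Rpl22l1, a paralog of Rpl22, at -0.78 ± 0.087, and both share stretches. Their summed level was 40824, 39829 and 38002 CPM in WT libraries and 29507, 24383 and 29902 CPM in MycKO libraries, with library 10 the lowest. Rps27, singled out after its values were seen, had 1.56 and was not called (limma, adjusted p = 0.0624), and WT library 1 held 6.38 CPM and the other WT libraries 110.5 and 76.03 CPM. It shares 62.5% of its stretches with Rps27rt, and without WT library 2 or WT library 3 it was the single ribosomal protein gene called higher.

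Lists of the rest of the translation apparatus were also lower. Translation factors were called lower in 31 of 41 members (median -0.33), among them Eif3e, a subunit of initiation factor eIF3 that shares stretches with other genes, at -0.73 ± 0.084, and Eef1b2, an exchange factor for elongation factor 1, at -0.63 ± 0.070. Eef1a1 and Eef2, the elongation factors that deliver aminoacyl-tRNA and move the ribosome, were among the genes that lost most CPM, from 7049 ± 101 to 5255 ± 57.1 and from 2908 ± 121 to 2287 ± 136 (SD, n = 3), and Eef1a1 shares 59.2% of its stretches. Of the 37 aminoacyl-tRNA synthetases listed, 20 were in the table under the symbols used, and 15 of these were called lower (median -0.27), led by the lysyl and valyl enzymes Kars and Vars at -0.61 ± 0.065 and -0.59 ± 0.059. All 10 chaperonin genes were called lower (median -0.51), with Hspd1, the mitochondrial chaperonin, at -0.77 ± 0.057 and Cct3, a subunit of the cytosolic TRiC complex, at -0.59 ± 0.060, where Hspd1 shares stretches with pseudogenes. Mitochondrial ribosomal proteins stood closer to the background, with 26 of 78 called lower (median -0.21). That count was 44 with library-total scaling, and without MycKO library 10 the count higher was 4 instead of 0. Mrps18b, which shares stretches, and Mrpl1 had the largest falls at -0.60 ± 0.081 and -0.57 ± 0.15.

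Against MlxKO cells, in which 43.6% of genes were called (21% higher and 22.5% lower, the background for every count against MlxKO, with MycKO libraries shared between both comparisons), lists of the translation apparatus read as follows. Members called lower in MycKO were 49 of 63 for nucleolar genes, 60 of 82 for ribosomal proteins, 29 of 41 for translation factors, 17 of 20 for synthetases and 9 of 10 for chaperonins. None of these lists had a member called higher. Hosts of small nucleolar RNAs had 12 of 15 called lower and 1 higher, and mitochondrial ribosomal proteins 24 of 78 lower and 2 higher. With library-total scaling the median of all genes in this comparison shifted by -0.12.

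**Figure D2:**
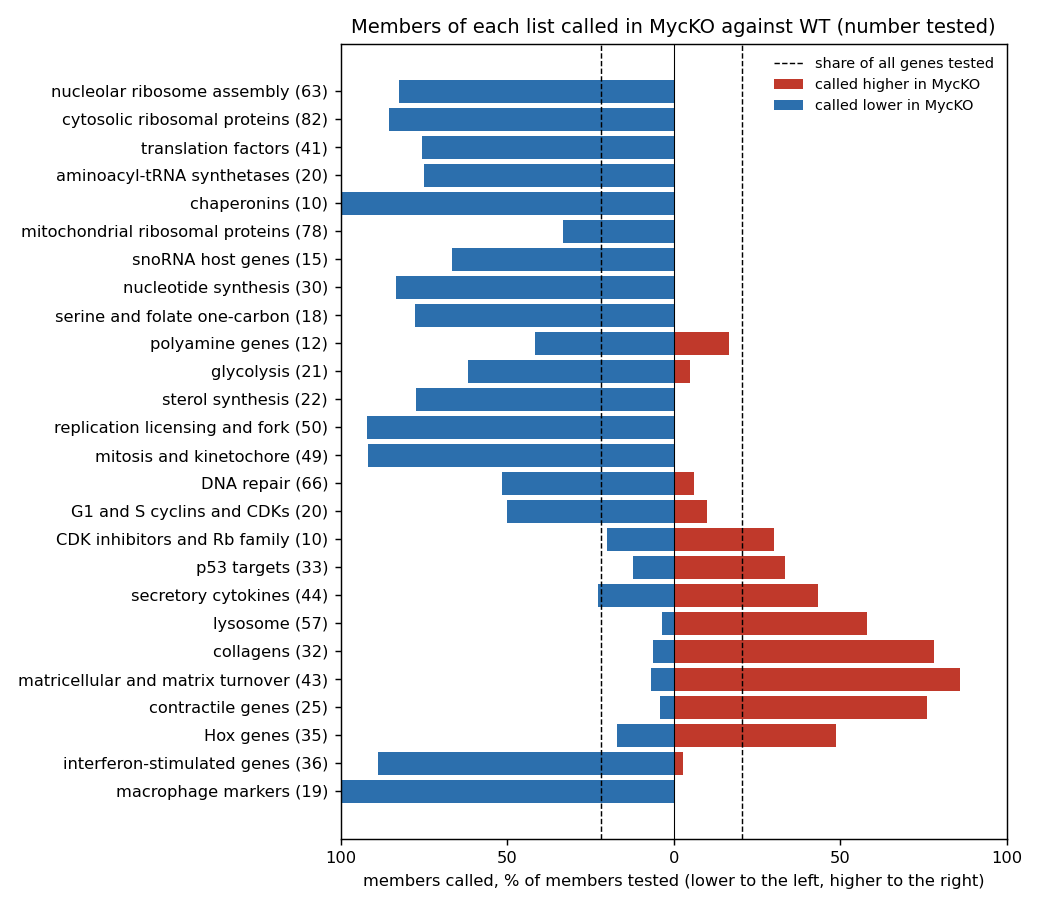
Bars give the share of members tested (number in parentheses) called higher in MycKO, to the right, or lower, to the left, and dashed lines the share of all genes tested called in each direction (20.4% and 21.9%). Lists of nucleolar, cytosolic ribosomal protein, nucleotide, serine and folate, sterol, replication and mitosis genes reach far past the left line. Mitochondrial ribosomal proteins reach less far (33.3%). Matrix, contractile and lysosome lists reach past the right line.

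Polyamine genes changed unevenly. Spermidine synthase, Srm, measured 158, 155 and 154 CPM in WT and 79.997, 78.9 and 80.2 CPM in MycKO libraries, a log2 fold change of -0.96 ± 0.059 (limma, adjusted p = 5.31e-09). Spermine synthase, Sms, which shares 28.6% of its stretches with a pseudogene, measured 26.02, 28.5 and 23.5 CPM in WT and 12.97, 12.8 and 11.8 CPM in MycKO libraries. In both genes the MycKO libraries lay near one another and far below WT, and MlxKO means were 138 and 26.2 CPM. Odc1, the ornithine decarboxylase that starts the pathway and a gene named after its values were seen, differed less, at -0.24 ± 0.060, and shares 40.2% of its stretches with other genes. Azin2, which encodes an inhibitor of antizyme and so protects ornithine decarboxylase, rose from 28.6, 30.5 and 29.98 to 57.1, 39.97 and 60.2 CPM. In all, 5 of 12 polyamine genes were called lower and 2 higher, and without MycKO library 11 the count higher was 1. Against MlxKO cells, 3 were called higher and 3 lower.

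Nucleotide synthesis genes were called lower in 25 of 30 members and higher in none (median -0.57). Dut, the dUTPase that keeps uracil out of DNA, measured 54.1, 52.2 and 54.5 CPM in WT and 22.7, 20.3 and 22.4 CPM in MycKO libraries (log2 fold change -1.26 ± 0.071, limma, adjusted p = 2.05e-09), and Dctd, the dCMP deaminase, had -1.17 ± 0.12. Levels of Dut were 48.8 CPM in MlxKO and 22.2 CPM in DKO cells on average. Cad, the trifunctional enzyme that begins pyrimidine synthesis, and Ppat, the amidotransferase that begins purine synthesis, named after their values were seen, had -0.87 and -0.93. Of 18 serine and folate pathway genes, 14 were called lower (median -0.53), led by the mitochondrial formyltetrahydrofolate synthetase Mthfd1l, which fell from 68.3, 69.4 and 67.1 to 33.1, 36.8 and 34.7 CPM. Counts against MlxKO cells were 22 of 30 lower and 1 higher for nucleotide genes and 14 of 18 lower for the serine and folate list.

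Of 21 glycolysis genes, 13 were called lower and 1 higher (median -0.34). Lactate transporter genes, counted with this list, had its largest falls. Slc16a1, encoding MCT1, measured 47.7, 42.7 and 44.1 CPM in WT and 24.1, 22.8 and 23.1 CPM in MycKO libraries, and its MlxKO level stayed at 44.6 CPM on average. By contrast Slc16a3, encoding MCT4, measured 92.8, 85.9 and 66.1 CPM in WT, 52.8, 41.1 and 57.7 CPM in MycKO and 47.2, 45.03 and 43.5 CPM in MlxKO libraries, so it was low in both knockouts and was not called between them (log2 fold change 0.14, limma, adjusted p = 0.351). In DKO libraries Slc16a3 was high, at 118, 128 and 127 CPM. Against MlxKO cells 7 of 21 glycolysis genes were called lower and 1 higher. The neuronal enolase Eno2, the single member called higher than WT at 0.28, lost its call with library-total scaling and without WT library 1, MycKO library 9 or MycKO library 11.

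Sterol synthesis genes were called lower in 17 of 22 members and higher in none (median -0.58). Idi1, the isopentenyl diphosphate isomerase, measured 93.3, 98.1 and 118 CPM in WT and 44.1, 49.7 and 40.4 CPM in MycKO libraries, and farnesyl diphosphate synthase, Fdps, measured 146, 148 and 159.7 CPM in WT and 80.8, 66.6 and 78.8 CPM in MycKO libraries. Neither gene overlapped between the groups, a condition on which they were named. Both share stretches with other genes, 24.99% and 54.2% of them. MlxKO libraries lay above WT, at 128, 154 and 156 CPM for Idi1 and 179.5, 184 and 222 CPM for Fdps, and against them 20 of 22 genes were called lower in MycKO with a median of -0.96.

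Windows around the E-box letters are shown for genes of these groups whose promoters hold them, to give the sequence that Myc with Max is known to bind. The windows were read from GRCm39 between 250 bases before and 50 bases after the start of each gene's canonical GENCODE vM39 transcript, on the gene's strand, with CACGTG in capitals. CACGTG reads the same on both strands, and the same letters are the core of elements bound by other bHLH-ZIP factors, the Mlx and TFEB families among them. Srm lies at chr4:148675776-148675805 (+ strand, motif 152 bases upstream of the start), Sms at chrX:156275462-156275491 (- strand, 183 bases), Slc16a1 at chr3:104545768-104545797 (+ strand, 31 bases) and Eef2 at chr10:81012410-81012439 (+ strand, 43 bases). Glb1, a lysosomal gene, at chr9:114230086-114230115 (+ strand, 46 bases), Mxd4, a Myc antagonist, at chr5:34345256-34345285 (- strand, 33 bases), and Hoxc13, a homeobox gene with a pair of motifs at chr15:102829333-102829362 and chr15:102829352-102829381 (+ strand, 193 and 174 bases), are shown because they hold the same letters and were called higher (log2 fold changes 0.30, 0.37 and 1.31). Of the other network genes, Max, Mlx and Mxd3 also hold the letters and were not called.
Srm: agggcctctcccCACGTGgcccggcagccg
Sms: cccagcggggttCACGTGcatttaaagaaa
Slc16a1: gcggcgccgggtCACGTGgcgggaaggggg
Eef2: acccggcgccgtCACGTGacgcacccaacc
Glb1: ctgcttctgagtCACGTGgcctacagaggc
Mxd4: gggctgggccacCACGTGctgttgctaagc
Hoxc13, upstream motif: caggcttagcatCACGTGcagcggctgtgg
Hoxc13, downstream motif: agcggctgtggtCACGTGggaaccaggggc

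Of the 13101 genes tested, 13086 had a window, and 9.97% of these held CACGTG. The share was 9.31% of genes called higher, 9.64% of those called lower and 10.3% of those not called. Among lists that fell, it was 17.5% for nucleolar genes, 17.1% for translation factors and 16.7% for nucleotide genes. It was 20% (4 of 20) for synthetases and 22.2% (4 of 18) for serine and folate genes, which rest on few genes. Nearer to the share of all genes were replication genes at 12%, cytosolic ribosomal proteins at 13.4% (11 of 82), sterol genes at 13.6%, and mitosis and glycolysis genes at 14.3% each. Below it were mitochondrial ribosomal proteins at 6.41%, interferon-stimulated genes at 2.78% and chaperonins, of which none of 10 held the letters. It was 28.1% (16 of 57) for the lysosome list and 25.7% (9 of 35) for Hox genes, lists with more members called higher than lower. None of 32 collagens and none of 19 macrophage markers held the letters in this window. A match is a description of letters, not a bound site.

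DNA replication genes were lower almost throughout. Of 50 licensing and fork genes, 46 were called lower and none higher, with a median of -0.66. Orc1, the largest subunit of the origin recognition complex, measured 11.8, 10.2 and 10.5 CPM in WT and 4.43, 4.71 and 5.38 CPM in MycKO libraries (log2 fold change -1.02 ± 0.15, limma, adjusted p = 3.32e-05), and Pole2, a subunit of DNA polymerase epsilon, had -0.99 ± 0.19. MlxKO libraries had intermediate levels of Orc1, 5.81, 6.64 and 9.35 CPM, and DKO libraries the lowest, 2.76, 3.17 and 2.71 CPM. Mitosis and kinetochore genes were called lower in 45 of 49 members (median -0.58), led by the condensin subunit Ncapg at -0.88 ± 0.10 and the checkpoint kinase Bub1, which fell from 47.7, 42.5 and 46.5 to 21.5, 31.2 and 22.96 CPM. Among MycKO libraries, library 10 was the highest for this list, with a sum of 2187, 2626 and 2205 CPM in libraries 9, 10 and 11 against 3396, 3375 and 3327 CPM in WT. Mki67, the proliferation marker, named after its values were seen, measured 183, 202 and 175 CPM in WT, 105, 140.0 and 112 CPM in MycKO and 140, 146 and 124 CPM in MlxKO libraries. MycKO and WT libraries of Mki67 did not overlap, whereas library 10 lay among the MlxKO libraries.

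Against MlxKO cells, 43 of 50 replication genes were called lower (median -0.42) and 25 of 49 mitosis genes (median -0.26). Mki67 was not called between MycKO and MlxKO (log2 fold change -0.21, limma, adjusted p = 0.0893). DNA repair genes were called lower in 34 of 66 members and higher in 4 (median -0.37), with 2 called higher without WT library 3 or MycKO library 9, and against MlxKO cells 3 were called higher and 27 lower. Fancb, of the Fanconi anemia core complex, and the exonuclease Exo1 had the largest falls, -0.95 ± 0.15 and -0.86 ± 0.12. The mismatch repair gene Mlh3 rose by 0.40, a call that was lost without WT library 1 (0.35) or MycKO library 10 (0.27) and with library-total scaling.

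Of 20 cyclins of G1 and S phase and their regulators, 10 were called lower and 2 higher against WT. The share higher, 10%, lay below the 20.4% of all genes tested. Against MlxKO cells 6 were called lower and 3 higher. Cyclin E2, Ccne2, which activates CDK2, measured 28.4, 25.4 and 31.7 CPM in WT and 13.4, 13.2 and 11.1 CPM in MycKO libraries (log2 fold change -1.12 ± 0.11, limma, adjusted p = 4.23e-07), and Skp2, the ubiquitin ligase component that targets the inhibitor p27, had -0.78 ± 0.14. A pair of D cyclins were the members called higher. Ccnd2 rose from 625, 692 and 686 to 954, 1006 and 932 CPM and Ccnd1, named after its values were seen, from 289, 303 and 274 to 360.4, 389.6 and 384 CPM, without overlap in either. The other D cyclin, Ccnd3, named after its values were seen, was not called (0.02, limma, adjusted p = 0.876). In DKO libraries, which also lack Myc, Ccnd1 measured 184, 176 and 195 CPM, below every WT library.

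Of 10 inhibitors of cyclin-dependent kinases and Rb family genes, 3 were called higher and 2 lower, shares near the background of all genes, and the counts against MlxKO cells were the same. Cdkn1c, encoding p57, rose 2.83-fold in mean level, from 8.07, 9.29 and 11.5 to 29.9, 24.5 and 27.3 CPM (log2 fold change 1.42 ± 0.11, limma, adjusted p = 8.46e-08). Cdkn2b, encoding p15, measured 31.8, 31.8 and 36.2 CPM in WT and 71.7, 60.6 and 71.7 CPM in MycKO libraries. Both were far above WT in every MycKO library. MlxKO libraries held 13.8, 11.8 and 12.5 CPM of Cdkn1c and 43.8, 48.1 and 52.2 CPM of Cdkn2b. For both genes every MlxKO library lay above every WT and below every MycKO library. Cdkn1a, encoding p21, rose by 0.54 on the log2 scale, whereas Cdkn2a, the locus of p16 and Arf, overlapped between the groups (48.1, 44.6 and 42.8 CPM in WT, 56.7, 42.4 and 56.4 CPM in MycKO, log2 fold change 0.18, limma, adjusted p = 0.133). Cdkn1b, encoding p27, was lower at -0.39, as was Rbl1, the Rb relative p107, at -0.64. Cdkn2a and Cdkn1b were named after their values were seen.

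**Figure D3:**
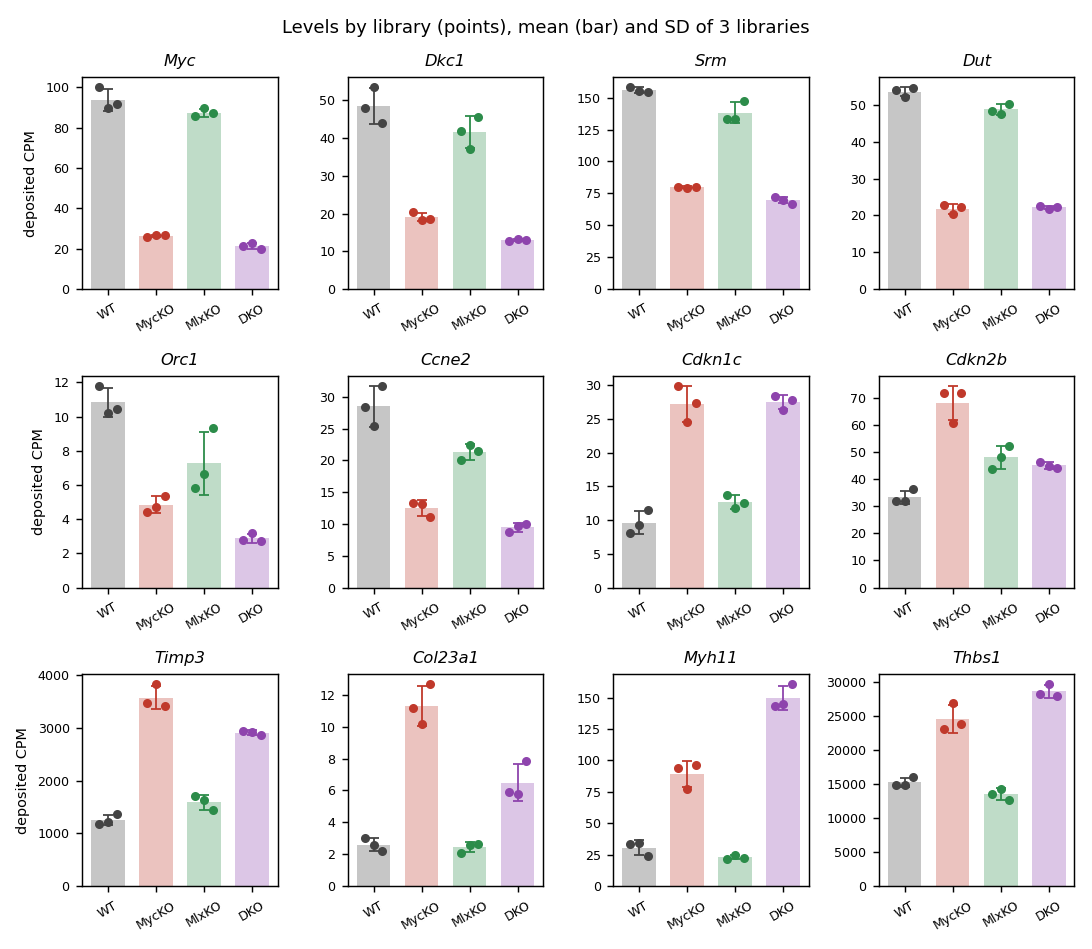
Deposited CPM of 12 genes in the 3 libraries (points) of WT, MycKO, MlxKO and DKO cells, with bars for the mean and lines for the SD. For Myc, Dkc1, Srm, Dut, Orc1 and Ccne2 every MycKO library lies below every WT library, and for Cdkn1c, Cdkn2b, Timp3, Col23a1, Myh11 and Thbs1 every MycKO library lies above. Apart from Myc, these genes were named on the condition that the libraries did not overlap.

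Of 33 targets and regulators of p53, 11 were called higher and 4 lower (median 0.12). The count higher was 6 with library-total scaling, and against MlxKO cells 8 were called higher and 2 lower. Besides Cdkn1a, the largest rise was Phlda3, an inhibitor of Akt signalling, from 138, 139.7 and 148 to 212, 159 and 221 CPM. Trp53 itself, named after its values were seen, was lower, with 145, 152 and 154 CPM in WT and 109, 94.3 and 105 CPM in MycKO libraries, and Sesn1, a sestrin, had -0.55 ± 0.14. The count lower was 2 when WT library 1 was left out.

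Of 12 nuclear and lysosomal marks of senescence, 6 were called lower and 3 higher (median -0.28), and the count higher fell to 1 when any of the 6 libraries but MycKO library 10 was left out. Genes of nuclear proteins were among the members called lower. Hmgb2, a chromatin protein, fell from 72.5, 73.7 and 63.6 to 38.5, 33.5 and 32.1 CPM (log2 fold change -0.99 ± 0.084, limma, adjusted p = 1.45e-07). The histone H2ax and lamin B1, Lmnb1, the latter named after its values were seen, had -0.80 ± 0.092 and -0.68 ± 0.074. Glb1, whose product is the beta-galactosidase stained as a senescence mark, measured 54.5, 50.2 and 49.3 CPM in WT and 67.5, 59.1 and 63.9 CPM in MycKO libraries (0.30 ± 0.075), against 54.5, 53.2 and 60.7 CPM in MlxKO, where the difference was not called (0.18, limma, adjusted p = 0.0695). Of 57 lysosome genes tested, 33 were called higher and 2 lower (median 0.26), with 23 and 4 under library-total scaling and 23 and 1 against MlxKO. The cathepsins K and F led, Ctsk at 87.7, 87.003 and 84.2 CPM in WT and 176, 135 and 168 CPM in MycKO libraries and Ctsf at 12.5, 14.1 and 13.1 CPM in WT and 25.5, 23.7 and 24.5 CPM in MycKO libraries. Gusb, the beta-glucuronidase, went against the list at -0.69 ± 0.072. DKO libraries lay above MycKO for Ctsf (31.2 CPM on average), whereas for Ctsk they lay nearer to WT (95.4 CPM).

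Markers of macrophages, immune cells that can be carried into MEF cultures, had the lowest median of the lists, -2.57. All 19 tested of 20 listed were called lower against WT and against MlxKO cells, and the remaining marker, Aif1, lay under the filter. Their summed level was 840.0, 673 and 428 CPM in WT and 105, 70.2 and 79.7 CPM in MycKO libraries. MlxKO libraries held 453, 568 and 506 CPM, within the range of the WT libraries, and DKO libraries 162, 145 and 322 CPM. Lyz2, lysozyme, which had the most reads of the list, measured 298, 234 and 152 CPM in WT and 47.1, 28.5 and 33.2 CPM in MycKO libraries, and Lcp1, a leukocyte actin-bundling protein, measured 68.7, 56.4 and 35.999 CPM in WT and 6.87, 4.77 and 5.88 CPM in MycKO libraries. The defining receptors Csf1r and Adgre1, named after their values were seen, had -2.66 ± 0.22 and -2.55 ± 0.24. Every marker ran in the same order over the WT libraries, highest in library 1 and lowest in library 3. All 19 had every MycKO library below every WT library, as had 24.6% of all genes tested, and none was at 0 in a MycKO library. Outside the list, other genes known from macrophages were among the largest falls of all genes, with Lilrb4a, which shares all its stretches with another gene, Mpeg1 and C3ar1 at log2 fold changes of -2.97, -2.95 and -2.80. The ratio of MycKO to WT sums over the list was 0.131.

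Of 44 secreted signalling genes tested, 19 were called higher and 10 lower (median 0.23), or 13 and 12 with library-total scaling. Against MlxKO cells, 28 were called higher and 9 lower (median 0.36). Those that rose included binding proteins of insulin-like growth factors. Igfbp3 measured 41.9, 49.6 and 77.7 CPM in WT and 197, 182 and 187 CPM in MycKO libraries (log2 fold change 1.77 ± 0.14, limma, adjusted p = 7.66e-08), and Igfbp5 and Igfbp7, named after their values were seen, had 1.17 and 0.72. The chemokine Cxcl14 rose from 50.1, 50.8 and 48.3 to 129.8, 94.8 and 121 CPM. DKO libraries held 209.8, 196 and 216 CPM of Igfbp3 and 148, 139.9 and 146 CPM of Cxcl14, as high as MycKO. The largest fall was Cxcl15, a neutrophil chemokine, from 12.4, 10.05 and 10.8 to 0.998, 1.44 and 1.20 CPM, and DKO libraries were as low, at 0.818, 1.43 and 0.864 CPM. Ccl9, Ccl5, Ccl3, Ccl4 and Mmp12, all called lower at -2.30, -1.85, -1.25, -1.03 and -1.01 and named after their values were seen, are chemokines and a protease that macrophages make, and macrophage markers fell in the same libraries. The part of those cells in these falls was not tested. Il6, the classical secreted cytokine of senescent cells, also named after its values were seen, was low in both groups, at 3.32 ± 0.442 and 5.40 ± 0.290 CPM (SD, n = 3), and called higher.

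Extracellular matrix genes were higher in MycKO cells in most members of their lists. Of 32 collagen genes tested, 25 were called higher and 2 lower, with a median of 0.67, and of 43 matricellular and matrix turnover genes 37 were called higher and 3 lower, with a median of 0.61. The summed level of the collagen list was 44897, 46111 and 49101 CPM in WT and 65524, 63018 and 68226 CPM in MycKO libraries. Col23a1, a transmembrane collagen, measured 2.99, 2.61 and 2.22 CPM in WT and 11.1, 10.1 and 12.7 CPM in MycKO libraries (log2 fold change 1.77 ± 0.14, limma, adjusted p = 8.9e-08), and Col28a1 had 1.65 ± 0.14. The basement membrane chains Col4a1 and Col4a2, named after their values were seen, rose by 1.04 and 1.12. Timp3, an inhibitor of metalloproteinases that is held in the matrix, rose from 1188, 1215 and 1366 to 3471, 3825 and 3417 CPM and Adamts5, an aggrecan-cleaving protease, from 214, 233 and 259 to 546, 595 and 574 CPM. In terms of reads, which are not corrected for gene length, the genes that gained most included Thbs1, encoding thrombospondin 1, at 14866, 14841 and 16021 CPM in WT and 22999, 26842 and 23741 CPM in MycKO libraries, and Col1a1, Sparc, Fn1 and Col5a1 at log2 fold changes of 0.35, 0.77, 0.41 and 0.79. The call of Fn1 was lost without WT library 1, where its log2 fold change was 0.36. Against MlxKO cells, 21 collagens were called higher and 3 lower, and 32 matricellular genes higher and 5 lower.

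Not every matrix gene rose. Col10a1, the collagen of hypertrophic cartilage, had the largest fall of the collagens, with 540.0, 511 and 698 CPM in WT and 89.7, 89.3 and 93.7 CPM in MycKO libraries (log2 fold change -2.65 ± 0.089, limma, adjusted p = 9.05e-12). It was low too in MlxKO libraries, at 145, 139 and 136 CPM, and in DKO libraries, at 45.8, 46.3 and 42.3 CPM, so WT stood above the 3 groups exposed to 4OHT. MycKO was also called lower than MlxKO (-0.62, limma, adjusted p = 3.69e-05). Lumican, Lum, fell by 0.65 on the log2 scale, from 106, 103 and 129.8 to 72.2, 77.2 and 64.9 CPM, while DKO libraries held 144, 122 and 145 CPM.

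Contractile genes of smooth muscle and myofibroblasts were called higher in 19 of 25 members and lower in 1 (median 0.41). Myh11, the smooth muscle myosin heavy chain, rose from 33.7, 34.7 and 23.7 to 94.3, 77.1 and 96.4 CPM and Itga8, an integrin of contractile cells, from 75.5, 73.3 and 94.8 to 171, 189.7 and 165 CPM. Acta2, smooth muscle alpha-actin, measured 4011, 3900.5 and 3953 CPM in WT and 6194, 6425 and 6525 CPM in MycKO libraries. In MlxKO libraries these genes lay below WT, with 23.03, 64.7 and 3476 CPM on average, and 22 of 25 members were called higher in MycKO than in MlxKO (median 0.79). The exception was desmin, Des, an intermediate filament of muscle, which measured 85.5, 82.3 and 76.6 CPM in WT, 32.5, 27.9 and 31.8 CPM in MycKO, 42.97, 35.4 and 32.1 CPM in MlxKO and 76.8, 83.2 and 77.2 CPM in DKO libraries. It was thus low after loss of either gene and near WT after loss of both. The defining genes of skeletal muscle, Myod1 and Myog among them, lay under the filter, and Acta1, the single marker of that list tested, was not called (-0.05).

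All 16 markers of fibroblasts, the labelled cell type, passed the filter. So did 19 of 20 macrophage markers, so passing it does not settle the cell type. Of the fibroblast markers, 12 were called higher in MycKO and 1, Lum, lower (median 0.34). Decorin, Dcn, rose from 178, 187 and 202 to 405, 416 and 378 CPM and Thy1 from 889, 897 and 845 to 1529.6, 1232 and 1526 CPM. With library-total scaling, 8 were called higher and 2 lower, and against MlxKO cells 10 were called higher and 2 lower.

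Of 36 interferon-stimulated genes tested, 32 were called lower and 1 higher, with a median of -1.24. Rtp4, a transmembrane protein induced by type I interferon, measured 36.4, 27.4 and 33.8 CPM in WT and 4.71, 6.28 and 5.33 CPM in MycKO libraries (log2 fold change -2.38 ± 0.12, limma, adjusted p = 1.11e-09), and Ifi44 measured 41.4, 32.7 and 41.6 CPM in WT and 5.82, 7.85 and 6.18 CPM in MycKO libraries. MlxKO libraries stayed near WT, at 32.3, 32.4 and 40.1 CPM of Rtp4 and 39.3, 43.2 and 42.3 CPM of Ifi44. DKO libraries, without Myc, lay between, at 17.4, 16.003 and 18.7 CPM of Rtp4 and 30.1, 29.05 and 30.5 CPM of Ifi44. Against MlxKO cells, 33 were called lower and none higher. The summed level of the list was 1365, 1139 and 1192 CPM in WT, 588, 586 and 637 CPM in MycKO, 1186, 1196 and 1268 CPM in MlxKO and 1006, 1023 and 1093 CPM in DKO libraries. Named after their values were seen, the regulator Irf7 had -1.89, and the ubiquitin-like Isg15 and the antiviral Ifit1 had -1.67 and -1.63. Ifi27 was the member called higher, at 0.41. Macrophages express many of these genes and their markers fell in the same MycKO libraries. The part of macrophages in the interferon list was not tested.

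Markers of other cell types were mostly under the filter or mixed. Erythroid and mast cell markers had none of 11 members tested, and among endothelial markers, 4 of which were tested with 1 called higher and 1 lower, the defining Pecam1, Cdh5 and Tie1 lay under it. Flt1, a VEGF receptor, was higher at 178, 205 and 175 CPM in MycKO against 107, 123 and 126 CPM in WT libraries. Of 6 adipocyte markers tested, Lpl, the lipoprotein lipase, rose to 125, 140.1 and 110.2 CPM from 50.7, 53.4 and 60.02 CPM, Cd36 and Fabp4 fell (-2.11 and -0.86), and Adipoq and Plin1 lay under the filter. Cartilage and bone markers included 2 called higher and 4 lower, with Col2a1 at -0.65, Spp1, encoding osteopontin, at -0.63 and Col11a2 at 0.70. Neural markers were 3 higher and 2 lower, with S100b and Tubb3 at 0.76 and 0.63 and Stmn2 at -0.99.

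Several genes, grouped after their values were seen, were lower in MycKO than in WT and also low in the other cells exposed to 4OHT. Pgr, the progesterone receptor and a classical target of the estrogen receptor, measured 11.7, 13.3 and 12.04 CPM in WT and 0.111, 0.262 and 0.548 CPM in MycKO libraries, the lowest of them under the floor of 3 reads. MlxKO libraries held 0.426, 1.08 and 0.462 CPM and DKO libraries 0.511, 1.53 and 0.749 CPM, and the difference between MycKO and MlxKO was not called (log2 fold change -0.33, limma, adjusted p = 0.208). Greb1, another estrogen target, measured 11.3, 12.4 and 14.8 CPM in WT, 2.44, 2.09 and 2.29 CPM in MycKO and 2.40, 2.39 and 1.03 CPM in MlxKO libraries. Esr1, the receptor, named after its values were seen, had -0.27 (limma, adjusted p = 0.0422). Of 11 estrogen receptor genes and targets tested, 5 were called lower and 1 higher, and the member called higher, the lysosomal protease Ctsd, was not called without WT library 2, WT library 3, MycKO library 9 or MycKO library 11, nor with library-total scaling. Against MlxKO cells, 1 was called higher and 4 were called lower in this list. Ctsd, named after its values were seen, shares 36.6% of its stretches with another gene. Among epithelial keratins, all 3 tested were lower, with Krt18 at 12.1, 10.4 and 9.06 CPM in WT, 0.388, 0.719 and 1.15 CPM in MycKO and 2.08, 1.32 and 2.36 CPM in MlxKO libraries, while Epcam and Cdh1 lay under the filter. Krt8, its partner, had -2.18 and shares 26.9% of its stretches, and Krt19 had -0.75. Kdr, a VEGF receptor, measured 12.6, 12.8 and 12.8 CPM in WT, 3.94, 6.15 and 5.28 CPM in MycKO and 2.24, 2.99 and 2.88 CPM in MlxKO libraries, the lowest in MlxKO. Between MycKO and MlxKO, Krt18 was called lower in MycKO (-0.74, limma, adjusted p = 0.00333) and Kdr higher (0.72, adjusted p = 0.000795), and Greb1 was not called (0.19, adjusted p = 0.435). For Pgr, Greb1, Krt18 and Kdr, WT stood alone above the groups that received 4OHT, and the part of 4OHT in them was not tested.

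**Figure D4:**
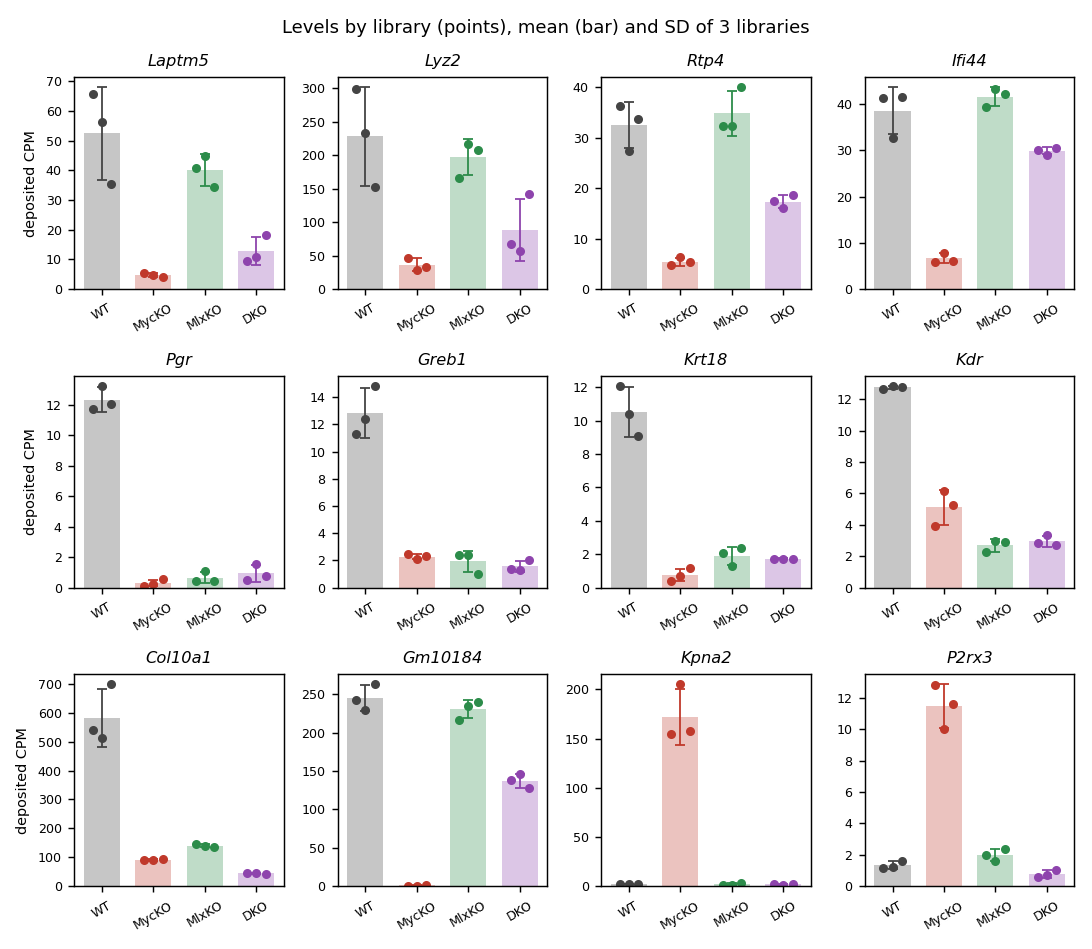
Deposited CPM of 12 genes in the 3 libraries (points) of WT, MycKO, MlxKO and DKO cells, with bars for the mean and lines for the SD. Laptm5, Lyz2, Rtp4 and Ifi44 are lowest in MycKO with MlxKO nearer to WT, Pgr, Greb1, Krt18, Kdr and Col10a1 lie below WT in MycKO, MlxKO and DKO (MycKO and MlxKO were called different for Krt18, Kdr and Col10a1), and Kpna2, Gm10184 and P2rx3 differ from WT mainly in MycKO.

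Hox genes, which hold positional identity along the body and limb axes, rose in 17 of 35 members tested and fell in 6 (median 0.39), with 13 and 6 under library-total scaling. The count lower, 17.1% of the list, did not exceed the 21.9% of all genes tested. Against MlxKO cells, 21 were called higher and 5 lower. The 6 called lower than WT, a small set described after its values were seen, lay in the A and D clusters. Whether position within a cluster went with the calls was not tested. Hoxd13, the most posterior gene of its cluster and a marker of distal limb, measured 44.4, 46.2 and 44.9 CPM in WT and 14.2, 15.5 and 10.6 CPM in MycKO libraries (log2 fold change -1.69 ± 0.12, limma, adjusted p = 2.68e-08). MlxKO libraries lay above WT at 59.7, 68.7 and 61.8 CPM and DKO libraries beside MycKO at 11.9, 11.8 and 9.04 CPM. The other members called lower, named after their values were seen, were Hoxd12, Hoxd11, Hoxd10, Hoxa13 and Hoxa11, at -1.16, -1.07, -0.73, -0.97 and -0.39. In the C cluster Hoxc13 measured 0.959, 1.14 and 1.34 CPM in WT and 4.05, 4.91 and 3.99 CPM in MycKO libraries, and Hoxc8 rose from 14.5, 16.2 and 15.8 to 27.3, 33.1 and 27.6 CPM. No member tested of the B or C cluster was called lower. Each cluster is small, 21.9% of all genes tested were called lower, and a difference between clusters was not tested.

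Genes of the Y chromosome bear on how alike the pools of embryos were. Ddx3y, an RNA helicase gene of the Y, measured 50.5, 53.4 and 55.8 CPM in WT, 73.4, 84.8 and 67.3 CPM in MycKO, 60.6, 59.2 and 56.3 CPM in MlxKO and 10.5, 10.9 and 10.1 CPM in DKO libraries. Eif2s3y followed the same order, at 23.7, 32.4, 29.6 and 4.12 CPM on average, and both were called higher in MycKO than in WT (0.49 and 0.43). Xist, the RNA that coats the inactive X chromosome of female cells, measured 143, 176 and 186 CPM in WT and 102, 146 and 102 CPM in MycKO libraries (-0.53 ± 0.16, limma, adjusted p = 0.012), and 545, 529 and 544 CPM in DKO libraries. MycKO library 10 lay within the WT range of Xist. Of 5 sex-linked genes tested, 2 were called higher than WT, 1 lower and 2 were not called. Libraries of DKO lay below all others in Ddx3y and Eif2s3y and above all others in Xist, and the part of pool differences in the other results was not tested.

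The changes that stood farthest from the rest were in a pair of near-identical genes. Kpna2, which encodes importin alpha 1 of nuclear import, measured 1.92, 2.23 and 2.63 CPM in WT and 155, 205 and 157 CPM in MycKO libraries, while Gm10184, a predicted gene that shares 94.1% of its stretches with Kpna2, and was named after its values were seen, measured 242, 230.1 and 263 CPM in WT and 0.832, 0.458 and 2.04 CPM in MycKO libraries. Reads thus lay on Gm10184 in WT and on Kpna2 in MycKO libraries. MlxKO libraries followed WT, with 1.01, 1.55 and 2.88 CPM of Kpna2 and 217, 235 and 241 CPM of Gm10184. DKO libraries held 2.15, 1.53 and 2.71 CPM of Kpna2, near WT. Their level of Gm10184, at 138, 146 and 128 CPM, lay between WT and MycKO. How reads were divided between the copies was not tested, and the values of either gene alone are uncertain.

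Other large rises differed between the groups without Myc. P2rx3, an ATP-gated ion channel of sensory neurons, measured 1.13, 1.25 and 1.64 CPM in WT, 12.8, 10.01 and 11.6 CPM in MycKO and 0.562, 0.739 and 1.04 CPM in DKO libraries, so its rise did not appear in DKO. Lgr5, a receptor for R-spondins and a marker of stem cells in several epithelia, measured 94.98, 99.4 and 154 CPM in WT, 509.9, 709 and 512 CPM in MycKO, 216, 228 and 212 CPM in MlxKO and 139, 139 and 133 CPM in DKO libraries. Susd2, Reg1, Cyp4b1 and Sv2c, with log2 fold changes between 2.21 and 2.41, had DKO means of 4.38, 0.862, 2.28 and 7.44 CPM, nearer to WT than to MycKO. Prelp, a leucine-rich proteoglycan of connective tissue, was high in both, at 77.5, 74.6 and 100.4 CPM in WT, 398, 449 and 409 CPM in MycKO and 251, 259.8 and 254 CPM in DKO libraries. Among abundant genes that fell, Il1rl1, the receptor of interleukin 33, measured 1043, 960.2 and 814 CPM in WT, 375, 372 and 370.4 CPM in MycKO, 779, 838 and 813 CPM in MlxKO and 243, 241 and 245 CPM in DKO libraries, low in both groups without Myc. Hsp90ab1, a cytosolic chaperone, and Eno1, enolase 1, which shares 63.6% of its stretches, fell by 0.49 and 0.50 on the log2 scale.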

How the data were processed

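Libraries were poly(A)-enriched and directional, from RNA with RIN values of at least 9.6. Per the labels and methods, the authors used CLC Genomics Workbench 22 and the GRCm39 genome, and deposited CPM scaled between libraries, a signal whose sums ranged from 971446 to 975490 in WT and from 1040376 to 1051865 in MycKO libraries. Whole reads were recovered from the steps between deposited values for 100% of values, within 0.001 of a whole number. The 12 libraries of immortalized cells were not used here. The members and lists were chosen with earlier results of these data known.

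Genes reaching 1 CPM in 3 or more of the 12 libraries were tested with limma 3.58.1 in R 4.3.3 (trend, pseudocount 1, Benjamini-Hochberg adjustment, threshold 0.05), and recovered reads were fitted with DESeq2 1.42.0 and edgeR 4.0.16 as alternatives (5587 and 5565 genes called). Other alternatives were a pseudocount of 0.1, other filters, scalings and sets of groups, and leaving out each library. On simulated data, limma recovered 61.8%, 91.8% and 100% of changes of 0.5, 1 and 2 on the log2 scale and called 7 of 12714 unchanged genes. The simulation changed 200 genes and gave every gene the same dispersion. In the data 42.3% of genes were called and spread differed between libraries, so these rates may not hold there. Named genes were all network members, up to 2 members of each other list with the largest called change in the list's main direction and up to 1 in the other (without overlap between libraries), the most abundant marker of each marker list, and the 8 largest rises and falls in log2 and 6 in CPM over all genes. Gm10184 was not in this set despite the size of its fall, and was named after its values were seen. Gene positions, transcripts and promoter windows came from GENCODE vM39.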

Additional observations from a re-analysis of the deposited data

How the results depend on the processing

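Called genes numbered between 4702 and 5904 under the scalings, filters, pseudocount, sets of groups and tools tried, and 5379 were called by limma, edgeR and DESeq2 alike (2630 higher, 2749 lower). Counting only calls of at least 1 on the log2 scale left 244 higher and 367 lower (611 in all) against WT, and 301 higher and 340 lower (641 in all) against MlxKO. With library-total scaling, calls against MlxKO were 4719 lower instead of 2950, and the share of calls that were higher was 31.4% instead of 48.3% against WT and 28.1% instead of 48.3% against MlxKO. Leaving out each library gave 4736 to 6236 calls against WT (2236 to 3028 higher, 2464 to 3208 lower, 47.2% to 48.6% higher) and 4760 to 6612 against MlxKO (2309 to 3199 higher, 2447 to 3413 lower, 48.4% to 49.1% higher), with the most calls in both without MycKO library 10. For named genes, 2029 of the values recomputed under these alternatives kept their direction and their side of the threshold, 93 fell short of it (69 of them where a change of at least 1 was required) and 7 passed it, and none reversed. Most of these genes were named for large called changes without overlap, so these counts say little about other called genes. Counts of list members stayed within 1.5 times in 1181 cases and moved further in 111. No paired analysis was possible because the library numbers of the columns were not tied to replicate numbers. Genes near 1 CPM rest on few reads, and 3 libraries a group from pooled embryos limit what their spread can measure.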
